A study of Homo sapiens with 9 samples.

Results

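Messenger RNA of 10 genes for mesenchymal cytoskeleton and extracellular matrix proteins was followed in A549 cells, a human lung adenocarcinoma line. The genes were VIM and TAGLN of the cytoskeleton, the adhesive glycoprotein FN1, the proteoglycans LUM and BGN, and the matricellular proteins SPARC, THBS1, CCN1, CCN2 and TNC. All 10 were found among the 51796 genes of the count table, and 8 of them had enough reads to be among the 14582 genes tested. The set was chosen by gene symbol with measured values in view, namely that LUM was lower in one knockdown and higher in the other. Values of the 10 genes against the control are therefore a description, without a test.

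RNA was sequenced from 3 groups of 3 biological replicates. Cells of the first carried a stable shRNA against PRMT5 (PRMT5 knockdown cells), those of the second one against MEP50, gene symbol WDR77 (MEP50 knockdown cells), and the control one against GFP, a gene these cells lack. All 3 groups are A549 cells under puromycin selection in RPMI medium with serum, so the control also carries a hairpin and has been selected. How many hairpins or clones stand behind each group is not given in the sources used here, and nothing says that replicates came from separate infections, so the p-values measure the spread between these libraries only. PRMT5 is the arginine methyltransferase that adds symmetric dimethyl marks to histones and splicing proteins, and MEP50 is its obligate WD-repeat partner.

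Vimentin is the intermediate filament protein by which mesenchymal cells are recognised, and transgelin, encoded by TAGLN, binds actin filaments in smooth muscle cells and fibroblasts. Fibronectin builds a fibrillar matrix outside the cell that integrins bind. Matricellular proteins are secreted into that matrix and act on cell adhesion and growth factors without forming its fibres. Lumican and biglycan are small leucine-rich proteoglycans that bind collagen fibrils. In carcinoma cells, a rise of VIM and FN1 is commonly read together with other genes as part of an epithelial-mesenchymal programme.

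Libraries held 20806181 to 31586128 reads on genes. PRMT5 mRNA was 33.1% of the control level in PRMT5 knockdown cells, and WDR77 mRNA was 31.8% of it in MEP50 knockdown cells. The epithelial keratins KRT8 and KRT18 were each at 1892 or more reads per 1000000 reads on genes (CPM) in every library, while KRT19 and EPCAM stayed below 0.3 CPM. Summed over a list of 11 markers of A549 and lung epithelial cells, levels were 4325 to 4470 CPM in PRMT5 knockdown cells, 4064 to 4333 CPM in MEP50 knockdown cells and 6445 to 6688 CPM in the control. KRT8 and KRT18, both lower in each knockdown, made up most of that sum. The other tested markers differed in direction. CDH2, for N-cadherin, was higher in both knockdowns, by a log2 fold change of 0.60 in PRMT5 knockdown cells and 0.86 in MEP50 knockdown cells (edgeR adjusted p = 1.53e-15 and 4.13e-20). CDH1, for E-cadherin, was lower in PRMT5 knockdown cells, by -0.20, and higher in MEP50 knockdown cells, by 0.92 (adjusted p = 0.0131 and 8.73e-14). KRT7 was higher in MEP50 knockdown cells, by 0.74 (adjusted p = 0.00170), and NAPSA was called in neither. The sum of 10 fibroblast markers was 244 to 256 CPM in PRMT5 knockdown cells, 304 to 319 CPM in MEP50 knockdown cells and 135 to 138 CPM in the control. COL3A1 made up most of that sum, while FAP, THY1 and PDPN had no read in any library. COL1A1 was at 6.39 to 19.6 CPM and S100A4 at 21.9 to 39.3 CPM over the 9 libraries. Of these 10 markers 4 were tested, among them PDGFRA with 68 reads in all, at 0 to 0.628 CPM over the 9 libraries. At so low a level PDGFRA may have passed the filter on low counts only through a group where it was higher. Nothing is read from its calls, which the following counts include. In PRMT5 knockdown cells 3 were called higher and 1 lower, beside 26.1% and 24.9% of all genes. In MEP50 knockdown cells all 4 were called higher, beside 26.5% of all genes. The sum of 8 smooth muscle and pericyte markers was 12.5 to 14.3 CPM in PRMT5 knockdown cells, 5.64 to 7.83 CPM in MEP50 knockdown cells and 10.2 to 12.9 CPM in the control. MCAM, SYNPO2 and RGS5 made up most of it, and 5 of the 8 stayed under 1 CPM in every library. Of the 3 tested, 1 was called higher and 1 lower in PRMT5 knockdown cells (33.3% each, beside 26.1% and 24.9% of all genes). In MEP50 knockdown cells 1 was higher (33.3%) and 2 lower (66.7%), beside 26.5% and 25.2%. Markers of blood and endothelial cells summed to 21.9 to 25.5, 24.6 to 28.2 and 15.0 to 16.6 CPM in PRMT5 knockdown cells, MEP50 knockdown cells and the control, nearly all of it CD68, with no read of CD3E or HBB. The part of these differences in the results was not tested. In bulk RNA, fewer cells expressing a gene and less RNA per cell cannot be told apart.

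The 8 measured genes showed 4 patterns. VIM, FN1 and SPARC were higher in both knockdowns than in the control, and TAGLN was lower in both. THBS1, CCN1 and CCN2 were higher in PRMT5 knockdown cells than in the control, but in MEP50 knockdown cells THBS1 was lower and the means of CCN1 and CCN2 did not pass the threshold, an edgeR adjusted p of 0.05. LUM was lower in PRMT5 knockdown cells and higher in MEP50 knockdown cells. BGN and TNC were almost without reads in every group. For values of these genes against the control, here and below, the threshold only sorts them and is not read as a test.

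Counted over the 8 tested genes in PRMT5 knockdown cells, 6 were higher and 2 lower than the control at an adjusted p below 0.05 in edgeR's quasi-likelihood test. Across all 14582 genes, 26.1% were called higher and 24.9% lower in that comparison. In MEP50 knockdown cells 4 were higher, 2 lower and 2 not called, where 26.5% of all genes were called higher and 25.2% lower. Because LUM was chosen on these same comparisons and the set was drawn up with them known, nothing is read from those counts. Median log2 fold changes of the 8 were 0.69 in PRMT5 knockdown cells and 0.29 in MEP50 knockdown cells, beside 0.0032 and -0.0019 over all genes tested. Without LUM the medians of the remaining 7 were 0.84 in PRMT5 knockdown cells and -0.028 in MEP50 knockdown cells. All of these medians and the counts of higher genes include SPARC, which had 3 reads in the control. SPARC could enter the test only by being higher in the knockdowns, so nothing is read from the medians either.

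**Figure D1:**
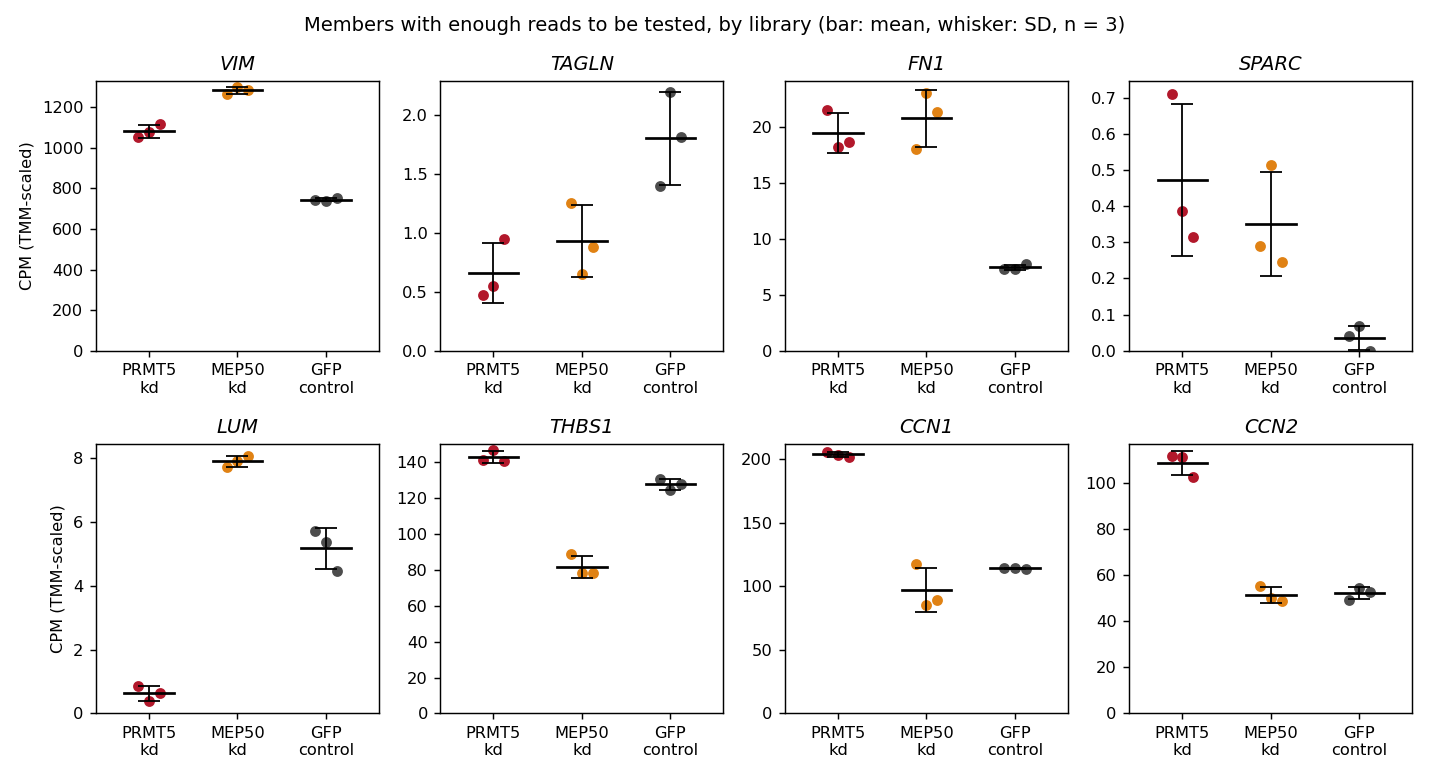
TMM-scaled CPM (vertical axes, linear and from 0) of the 8 genes with enough reads, in PRMT5 knockdown cells (red), MEP50 knockdown cells (orange) and the GFP control (grey); points are libraries, bars are means and whiskers are SD over 3 libraries. VIM and FN1 sit above the control in both knockdowns, CCN1 and CCN2 stand above it in PRMT5 knockdown cells, and LUM lies below it in PRMT5 knockdown cells and above it in MEP50 knockdown cells.

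Levels within a group were compared per kilobase of annotated exon. VIM was the most abundant of the set in every group, at 210 ± 6.33 CPM per kb in PRMT5 knockdown cells, 249 ± 3.37 in MEP50 knockdown cells and 144 ± 1.61 in the control (SD, n = 3). CCN1, CCN2 and THBS1 followed in that order in all 3 groups, and their ranges did not overlap within a group. CCN1, for example, was at 83.0 CPM per kb in PRMT5 knockdown cells, 39.6 in MEP50 knockdown cells and 46.5 in the control.

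The lower part of the order changed between groups. LUM stood above FN1 in MEP50 knockdown cells, at 2.63 against 1.20 CPM per kb, and in the control, at 1.72 against 0.431. In PRMT5 knockdown cells FN1, at 1.12 CPM per kb, stood above LUM, at 0.209. LUM, TAGLN and SPARC, at 0.209, 0.167 and 0.0975 CPM per kb in PRMT5 knockdown cells, overlapped with their neighbours in that order, and so did TAGLN and FN1 in the control, at 0.459 and 0.431. With the length of the longest transcript in place of all exons, FN1 moved above TAGLN in the control and no other place changed.

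**Figure D2:**
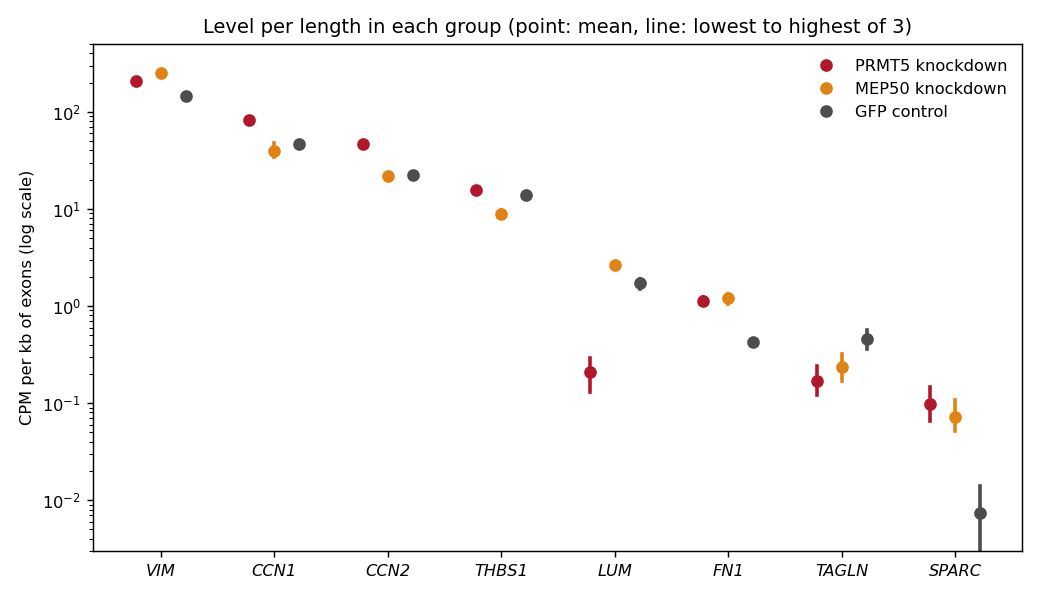
Mean level per kilobase of exon (vertical axis, CPM per kb, log scale) of the 8 genes in PRMT5 knockdown cells (red), MEP50 knockdown cells (orange) and the GFP control (grey); lines run from the lowest to the highest of 3 libraries, and the line of SPARC in the control, which has 1 library at 0, is cut at the lower edge. VIM stands at 144 to 249 CPM per kb, and SPARC is lowest of the 8 in every group.

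VIM had 1051, 1076 and 1116 CPM in PRMT5 knockdown libraries, 1266, 1301 and 1284 CPM in MEP50 knockdown libraries, and 743, 738 and 754 CPM in the control libraries. No library of one group reached the range of another. The log2 fold change against the control was 0.54 ± 0.026 (SE) in PRMT5 knockdown cells and 0.79 ± 0.026 in MEP50 knockdown cells. Between the knockdowns, a comparison that leaves out the control, VIM was lower in PRMT5 knockdown cells by a log2 fold change of -0.25 (edgeR adjusted p = 1.72e-10, lower in 3 of 3 libraries).

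VIM-AS1, a transcript antisense to VIM whose exons share 641 bases with it, went the other way. It had 10, 16 and 14 reads in PRMT5 knockdown cells, 6, 7 and 10 in MEP50 knockdown cells, and 31, 36 and 34 in the control. Its level fell by 1.43 ± 0.35 on the log2 scale in PRMT5 knockdown cells (edgeR adjusted p = 7.81e-04) and by 1.90 ± 0.39 in MEP50 knockdown cells (adjusted p = 7.28e-05). The libraries are stranded, but the strand setting of the counting is not given, so how reads in the shared bases were assigned is not known.

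TAGLN was near the lower end of detection, with 12, 17 and 30 reads in PRMT5 knockdown cells, 26, 14 and 25 in MEP50 knockdown cells, and 35, 65 and 50 in the control. Every knockdown library was below every control library, as CPM too: the highest knockdown library reached 1.26 CPM and the lowest control library 1.40 CPM. The log2 fold change against the control was -1.44 ± 0.32 (SE) in PRMT5 knockdown cells and -0.96 ± 0.32 in MEP50 knockdown cells. In MEP50 knockdown cells that change no longer passed the threshold without MEP50 knockdown replicate 2 (-0.78) or without control replicate 2 (-0.80). The knockdowns did not differ detectably from each other, with a log2 fold change of -0.47, a 95% interval from -1.20 to 0.25 and an edgeR adjusted p of 0.313. Exons of PCSK7, on the opposite strand, share 11.4% of the exon bases of TAGLN, and antisense exons also share 7.89% of those of SPARC, 8.34% of CCN2 and up to 4.89% of THBS1.

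FN1 had 21.5, 18.3 and 18.6 CPM in PRMT5 knockdown cells, 18.0, 23.0 and 21.3 CPM in MEP50 knockdown cells, and 7.30, 7.35 and 7.71 CPM in the control. The libraries of the 2 knockdowns overlapped each other and all lay above the control. Log2 fold changes against the control were 1.38 in PRMT5 knockdown cells and 1.48 in MEP50 knockdown cells, with 95% intervals from 1.18 to 1.58 and from 1.28 to 1.68. Between the knockdowns the log2 fold change was -0.10, its 95% interval ran from -0.28 to 0.079, and the edgeR adjusted p was 0.397.

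Promoter sequence from RefSeq (GRCh38.p14) was at hand for 7 of the 10 genes, as the 250 bases before the annotated start. The promoters of VIM and FN1 are shown because these 2 well-covered genes were higher in both knockdowns. They are written 5′ to 3′ on the gene's strand, with capitals at matches to GGGCGG, the GC box bound by SP1, on either strand.
VIM promoter, chr10:17227991-17228240, plus strand: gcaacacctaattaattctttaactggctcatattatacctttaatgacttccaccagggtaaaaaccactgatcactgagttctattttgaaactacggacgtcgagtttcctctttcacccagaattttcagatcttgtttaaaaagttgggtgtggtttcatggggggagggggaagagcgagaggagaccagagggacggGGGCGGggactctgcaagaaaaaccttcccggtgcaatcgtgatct
FN1 promoter, chr2:215436069-215436318, minus strand: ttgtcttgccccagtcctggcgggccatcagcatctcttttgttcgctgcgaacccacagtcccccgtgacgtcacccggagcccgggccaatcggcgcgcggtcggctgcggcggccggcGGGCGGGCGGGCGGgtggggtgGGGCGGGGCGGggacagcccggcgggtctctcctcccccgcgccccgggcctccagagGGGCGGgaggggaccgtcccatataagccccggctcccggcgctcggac
The GC box occurred 1 time before VIM and 6 times before FN1, where some matches overlap. At least 1 match stood in 42.6% of all 35116 RefSeq promoters of this length. Neither held the CArG box of SRF, the TEAD motif GGAATG, the AP-1 site TGANTCA or the TATA box TATAAA, found in 1.16%, 11.9%, 6.57% and 10.7% of those promoters. Only the letters TATAAA were searched as TATA box, so a variant such as tataag near the end of the FN1 sequence was not counted.

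SPARC encodes a collagen-binding matricellular protein. It had 18, 12 and 10 reads in PRMT5 knockdown cells, 6, 11 and 7 in MEP50 knockdown cells, and 1, 2 and 0 in the control. Its highest library was at 0.710 CPM. The gene passed the filter on low counts only through the knockdown libraries, so it could enter the test only by being higher there. From the summed counts it was 12.5 times the control in PRMT5 knockdown cells (95% counting interval 3.97 to 63.0) and 9.35 times in MEP50 knockdown cells (2.84 to 48.5). The fitted log2 fold change against the control, 3.50 in PRMT5 knockdown cells and 3.08 in MEP50 knockdown cells, moved with single control libraries. Without control replicate 2 it was 4.29 in PRMT5 knockdown cells and 3.87 in MEP50 knockdown cells, and without control replicate 3 it was 2.96 in PRMT5 knockdown cells and 2.55 in MEP50 knockdown cells. The 2 knockdowns overlapped, with an edgeR adjusted p of 0.549 for their difference and a 95% interval of the log2 fold change from -0.60 to 1.44.

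THBS1 encodes thrombospondin-1, a large trimeric glycoprotein that binds CD47 and CD36 and activates latent TGF-beta. It had 141, 147 and 141 CPM in PRMT5 knockdown cells, 88.8, 78.0 and 78.1 CPM in MEP50 knockdown cells, and 131, 124 and 128 CPM in the control. The 3 groups did not overlap, with the control between the knockdowns. Its log2 fold change against the control was 0.16 in PRMT5 knockdown cells, the smallest of the 8 there, and -0.65 in MEP50 knockdown cells. Between the knockdowns THBS1 was higher in PRMT5 knockdown cells, with a log2 fold change of 0.81 (95% interval 0.73 to 0.89, edgeR adjusted p = 2.88e-19, higher in 3 of 3 libraries).

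CCN1 and CCN2 encode the cysteine-rich integrin ligands formerly called CYR61 and CTGF, both well-known targets of the transcription factors YAP-TEAD and SRF. CCN1 had 206, 204 and 202 CPM in PRMT5 knockdown cells, 117, 85.0 and 89.6 CPM in MEP50 knockdown cells, and 115, 114 and 114 CPM in the control. CCN2 had 112, 111 and 102 CPM in PRMT5 knockdown cells, 55.2, 49.9 and 48.8 CPM in MEP50 knockdown cells, and 49.3, 54.6 and 52.5 CPM in the control. Both genes stood above all other libraries in PRMT5 knockdown cells, while MEP50 knockdown cells and the control overlapped.

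Against the control, log2 fold changes in PRMT5 knockdown cells were 0.84 for CCN1 and 1.05 for CCN2. In MEP50 knockdown cells they were -0.24 for CCN1, with a 95% interval from -0.51 to 0.036, and -0.028 for CCN2, with one from -0.13 to 0.078. Replicate 1 of MEP50 knockdown cells was the highest of its group for CCN1, CCN2 and THBS1. Without it, the log2 fold change of CCN1 was -0.38, past the threshold, and both remaining libraries lay below all controls. Between the knockdowns CCN1 was higher in PRMT5 knockdown cells by a log2 fold change of 1.07 ± 0.11 (SE, edgeR adjusted p = 2.68e-04) and CCN2 by 1.08 ± 0.050 (adjusted p = 1.10e-20). Each was higher in 3 of 3 libraries.

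Promoters of CCN2 and THBS1 are shown because both genes were higher in PRMT5 knockdown cells than in MEP50 knockdown cells, and both hold the TEAD motif. Because the motif was part of that choice, nothing is read from its going with the direction. It stood in 11.9% of all promoters of this length. No promoter of CCN1, also higher in that comparison, was at hand. Capitals mark every match to the TEAD motif, the GC box or the TATA box on either strand.
CCN2 promoter, chr6:131951373-131951622, minus strand: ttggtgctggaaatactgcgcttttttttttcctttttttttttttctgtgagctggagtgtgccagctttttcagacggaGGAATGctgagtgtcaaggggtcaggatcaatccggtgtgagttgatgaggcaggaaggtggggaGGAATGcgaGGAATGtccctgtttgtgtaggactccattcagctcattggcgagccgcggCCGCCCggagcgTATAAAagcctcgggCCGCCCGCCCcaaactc
THBS1 promoter, chr15:39580829-39581078, plus strand: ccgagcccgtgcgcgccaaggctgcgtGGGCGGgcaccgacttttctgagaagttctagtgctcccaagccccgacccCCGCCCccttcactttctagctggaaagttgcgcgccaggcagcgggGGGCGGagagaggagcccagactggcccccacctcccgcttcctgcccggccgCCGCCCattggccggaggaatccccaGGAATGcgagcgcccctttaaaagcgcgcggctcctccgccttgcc
GGAATG occurred 3 times before CCN2 and 1 time before THBS1, and TATAAA 1 time before CCN2. Of the other 5 promoters at hand, the one of SPARC also held a single GGAATG, on the opposite strand, and those of VIM, FN1, BGN and TNC held none. SPARC was not called between the knockdowns (edgeR adjusted p = 0.549). A match is a stretch of letters and not a measured binding site.

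**Figure D3:**
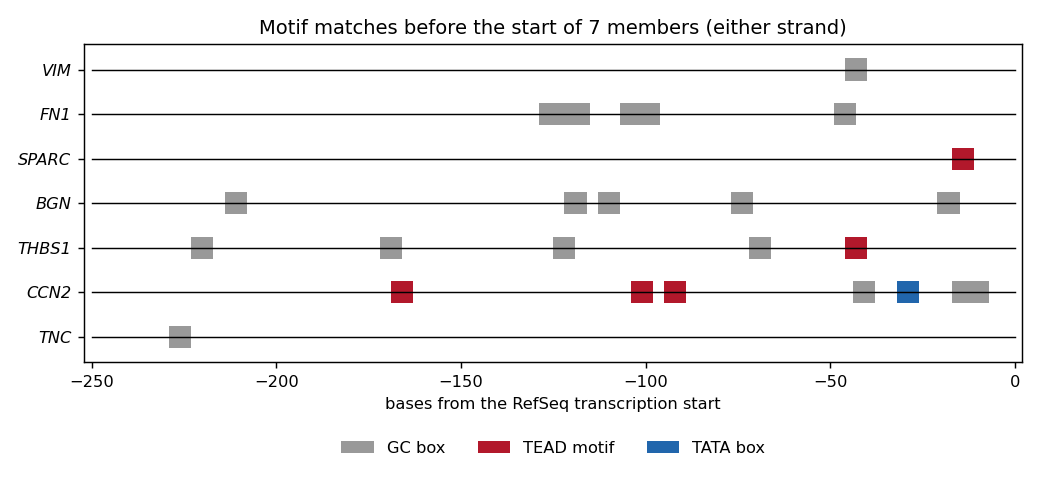
Positions of motif matches (boxes: GC box grey, TEAD motif red, TATA box blue) in the 250 bases before the RefSeq start of 7 genes; the horizontal axis gives bases from the start. CCN2 has 3 TEAD motifs, THBS1 and SPARC have 1 each, and the remaining genes have none.

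TNC, the gene of the matricellular protein tenascin-C, had 1, 1 and 0 reads in PRMT5 knockdown cells and none in the 6 other libraries. BGN had 1 read in all 9 libraries, in replicate 2 of MEP50 knockdown cells. Neither was tested. In a library of this depth, a count of 0 allows a level of up to 0.0947 to 0.145 CPM (3 counts, counting error only). A level below that can be missed in a single library. Over the 3 libraries of a group the limit is lower and is not given, and differences in that range were not tested.

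LUM encodes lumican, a keratan sulphate proteoglycan best known from the cornea, where it sets the spacing of collagen fibrils. It had 0.868, 0.387 and 0.631 CPM in PRMT5 knockdown cells, from 22, 12 and 20 reads. In MEP50 knockdown cells it had 7.73, 7.90 and 8.07 CPM, from 160, 169 and 229 reads. In the control it had 5.71, 5.36 and 4.46 CPM, from 143, 159 and 123 reads. The groups did not overlap. The log2 fold change against the control was -3.06 ± 0.22 (SE) in PRMT5 knockdown cells and 0.61 ± 0.15 in MEP50 knockdown cells, and these are the values that chose the gene. By summed counts scaled to depth, LUM in PRMT5 knockdown cells was at 0.0775 times its level in MEP50 knockdown cells (95% counting interval 0.0575 to 0.103).

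Over all 14582 genes, 209 were called lower in PRMT5 knockdown cells and higher in MEP50 knockdown cells, and 174 the other way round, beside 2581 called higher and 2267 called lower in both. The 2 comparisons share the control libraries. The nearest protein-coding neighbours of LUM in RefSeq include 3 other members of its family. KERA and EPYC had no read and DCN 1 read in all 9 libraries, against 1037 reads of LUM.

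Among the 12679 genes averaging 1 CPM or more, the profile over the 9 libraries most like that of LUM was that of MUC13, a membrane mucin. Likeness was measured as the root-mean-square difference of centred log2 CPM, which was 0.36 for MUC13. MUC13 averaged 0.32 CPM in PRMT5 knockdown cells, 4.98 CPM in MEP50 knockdown cells and 4.54 CPM in the control. EPS8L3 (0.51), an unnamed gene (0.54), the noncoding SIRLNT (0.54) and TRIM2 (0.78) came next. SIRLNT averaged 2.30, 13.4 and 9.10 CPM in PRMT5 knockdown cells, MEP50 knockdown cells and the control, and was the one of these 5 whose mean in MEP50 knockdown cells exceeded the control by the largest factor.

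Between the 2 knockdowns, the 7 tested genes other than LUM include 3 called higher in PRMT5 knockdown cells (THBS1, CCN1 and CCN2) and 1 called lower (VIM). TAGLN, FN1 and SPARC were not called. Over all genes, 19.2% were called higher and 20.5% lower in that comparison. LUM was lower in PRMT5 knockdown cells by a log2 fold change of -3.67, given without a test.

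**Figure D4:**
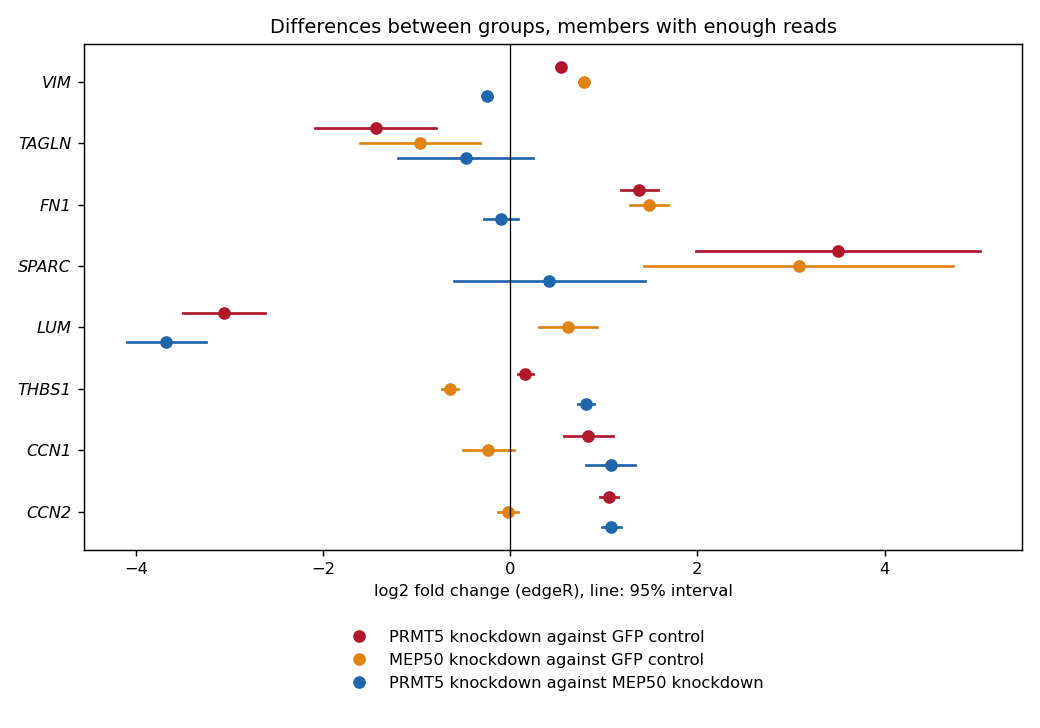
Log2 fold changes (horizontal axis, edgeR) of the 8 genes in PRMT5 knockdown cells against the GFP control (red), MEP50 knockdown cells against the GFP control (orange) and PRMT5 knockdown cells against MEP50 knockdown cells (blue), with 95% intervals as lines. VIM and FN1 lie right of 0 against the control in both knockdowns, and THBS1, CCN1 and CCN2 lie right of 0 in PRMT5 knockdown cells against MEP50 knockdown cells; the fitted value of SPARC depends on the prior count because the control has 3 reads.

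Genes of the same families and pathways were taken from 7 lists. Their counts stand against the shares over all 14582 genes tested, which were 26.1% higher and 24.9% lower in PRMT5 knockdown cells and 26.5% higher and 25.2% lower in MEP50 knockdown cells. Median log2 fold changes over all genes were 0.0032 in PRMT5 knockdown cells and -0.0019 in MEP50 knockdown cells. Of 34 contractile actin genes, 28 were tested. In PRMT5 knockdown cells 17 rose (60.7%) and 7 fell (25%), and in MEP50 knockdown cells 19 rose (67.9%) and 7 fell (25%), so the share that fell was near that of all genes in both. The list's median log2 fold change was 0.16 in PRMT5 knockdown cells and 0.23 in MEP50 knockdown cells. Upper quartiles over all genes were 0.217 and 0.221. Shares over all genes, here and for the other lists, were not matched for level, and small changes of well-covered genes are called. TPM3, averaging 469 CPM, was called higher in PRMT5 knockdown cells at 0.14 and lower in MEP50 knockdown cells at -0.14. Between the knockdowns 9 of the 28 were higher (32.1%) and 11 lower (39.3%) in PRMT5 knockdown cells, beside 19.2% higher and 20.5% lower over all genes. TPM1, a tropomyosin, rose to 301 ± 1.88 CPM in PRMT5 knockdown cells and 254 ± 11.6 CPM in MEP50 knockdown cells, against 114 ± 2.68 CPM in the control (SD, n = 3; edgeR adjusted p = 2.13e-31 and 2.49e-28). PDLIM5, which links kinases to the Z-disc, fell to 346 ± 11.3 CPM in PRMT5 knockdown cells and 305 ± 16.6 CPM in MEP50 knockdown cells, against 921 ± 11.6 CPM (adjusted p = 1.59e-31 and 6.82e-33). FHL1, a LIM-domain protein of muscle, fell in both, to 34.9 ± 2.36 CPM in PRMT5 knockdown cells and 18.8 ± 1.34 CPM in MEP50 knockdown cells, against 56.1 ± 0.894 CPM in the control (adjusted p = 5.84e-13 and 5.34e-23). The knockdowns also differed from each other in FHL1 (adjusted p = 3.72e-14). ACTA2, for smooth muscle actin, was lower in PRMT5 knockdown cells than in MEP50 knockdown cells, at 9.22 ± 0.922 against 15.3 ± 1.89 CPM (edgeR adjusted p = 2.68e-07). Its control level was 9.87 ± 0.383 CPM. MYL9 and ACTG2 had no read in any library.

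Of the 16 intermediate filament genes and linkers, 10 were tested, and 5 were higher and 1 lower in PRMT5 knockdown cells, beside 26.1% and 24.9% of all genes. Of the same 10 in MEP50 knockdown cells, 3 were higher and 3 lower, or 30% each, which is near the 26.5% and 25.2% of all genes. Their median log2 fold changes were 0.059 and -0.041. LMNB1, a nuclear lamin, rose to 299.5 ± 6.86 CPM in PRMT5 knockdown cells and 325 ± 7.50 CPM in MEP50 knockdown cells, against 228 ± 2.78 CPM in the control (adjusted p = 9.07e-15 and 3.03e-18). SYNM, the vimentin-binding synemin, was higher in PRMT5 knockdown cells than in MEP50 knockdown cells, at 82.4 ± 4.11 against 61.2 ± 0.741 CPM (adjusted p = 3.78e-10). Its control level was 71.2 ± 2.66 CPM.

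The 17 genes of the CCN family and of YAP targets had 14 tested members. In PRMT5 knockdown cells 8 rose (57.1%) and 2 fell (14.3%), beside 26.1% and 24.9% of all genes. In MEP50 knockdown cells 5 rose (35.7%) and 4 fell (28.6%), beside 26.5% and 25.2%. Between the knockdowns 8 were higher (57.1%) and 3 lower (21.4%) in PRMT5 knockdown cells, beside 19.2% and 20.5%, so that the shares of lower genes were near those of all genes in these last comparisons. Median log2 fold changes were 0.23 in PRMT5 knockdown cells and 0.060 in MEP50 knockdown cells against the control, and 0.11 between the knockdowns. ANKRD1, a cardiac ankyrin-repeat protein and a common YAP reporter, had 135 ± 4.29 CPM in PRMT5 knockdown cells and 39.5 ± 4.83 CPM in MEP50 knockdown cells, beside 66.8 ± 2.69 CPM in the control (SD, n = 3; edgeR adjusted p = 3.66e-23 between the knockdowns). AMOTL2 was also higher in PRMT5 knockdown cells than in MEP50 knockdown cells, at 143 ± 6.44 against 91.1 ± 8.36 CPM (adjusted p = 9.03e-14). CRIM1 was lower, at 252 ± 12.9 CPM in PRMT5 knockdown cells against 388 ± 5.08 CPM in MEP50 knockdown cells (adjusted p = 1.82e-19). In the control AMOTL2 was at 115 ± 2.05 CPM and CRIM1 at 371 ± 8.97 CPM. AXL, a receptor tyrosine kinase, rose in both, to 350.1 ± 3.74 CPM in PRMT5 knockdown cells and 465 ± 1.82 CPM in MEP50 knockdown cells, against 143 ± 4.83 CPM in the control (adjusted p = 1.19e-31 and 1.52e-35). AMOTL1 fell in both, to 74.1 ± 1.54 CPM in PRMT5 knockdown cells and 68.1 ± 2.01 CPM in MEP50 knockdown cells. Its control level was 119 ± 1.77 CPM (edgeR adjusted p = 4.01e-18 and 4.69e-20). Among the other CCN genes, CCN4 and CCN6 had no read, CCN3 had 4 and CCN5 200 reads over the 9 libraries.

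Other matricellular genes numbered 23, of which 12 were tested. Among these, 3 were higher (25%) and 2 lower (16.7%) in PRMT5 knockdown cells, where the share of higher genes was near the 26.1% of all genes and 24.9% of all genes were lower. The counts in MEP50 knockdown cells were 7 higher (58.3%) and 2 lower (16.7%), beside 26.5% and 25.2%. Their median log2 fold changes were 0.0031 in the first and 0.16 in the second. One of the 7, SPOCK1, had 47 reads in all and passed the filter on low counts only through the MEP50 knockdown libraries. It averaged 0.528 CPM there, 0.0528 CPM in PRMT5 knockdown cells and 0.0644 CPM in the control. SPOCK1 could enter the test only by being higher there, so nothing is read from its call. The counts and medians include it. EFEMP1, a fibulin, rose to 6.32 ± 0.246 CPM in PRMT5 knockdown cells and 8.02 ± 0.633 CPM in MEP50 knockdown cells, against 1.58 ± 0.380 CPM in the control (adjusted p = 4.71e-13 and 3.47e-15). SPP1 fell in both, to 319 ± 8.32 CPM in PRMT5 knockdown cells and 269 ± 7.49 CPM in MEP50 knockdown cells. Its control level was 460 ± 3.51 CPM (edgeR adjusted p = 3.26e-19 and 2.12e-24). TGFBI, an adhesion protein induced by TGF-beta, was lower in PRMT5 knockdown cells than in MEP50 knockdown cells, at 101 ± 3.47 against 181 ± 4.81 CPM (adjusted p = 3.18e-21). Both knockdowns were above the TGFBI control level of 85.8 ± 3.05 CPM (edgeR adjusted p = 2.57e-06 in PRMT5 knockdown cells and 2.57e-25 in MEP50 knockdown cells). SMOC1, which belongs to the SPARC family, was also lower in PRMT5 than in MEP50 knockdown cells, at 32.9 ± 2.12 against 66.4 ± 5.24 CPM (adjusted p = 1.67e-16). Its control level was 59.7 ± 4.19 CPM.

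Small leucine-rich proteoglycans other than LUM and BGN were mostly without reads, as 9 of 15 had no read in any library and 2 were tested. TSKU fell in both knockdowns, to 88.6 ± 0.394 CPM in PRMT5 knockdown cells and 103 ± 4.67 CPM in MEP50 knockdown cells, against 114 ± 3.94 CPM in the control (adjusted p = 4.33e-10 and 0.00239). ECM2, with 64 reads in all, passed the filter on low counts only through knockdown libraries, so its mean levels of 0.286 CPM in PRMT5 knockdown cells, 0.435 CPM in MEP50 knockdown cells and 0.112 CPM in the control are given without a test.

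Receptors for fibronectin, tenascin and thrombospondin numbered 19, of which 12 were tested. In PRMT5 knockdown cells 5 were higher and 5 lower (41.7% each), beside 26.1% and 24.9% of all genes. The receptors had 6 higher (50%) and 4 lower (33.3%) in MEP50 knockdown cells, beside 26.5% and 25.2%. The medians of this list were -0.067 and 0.098 on the log2 scale. ITGAV fell to 246 ± 16.4 CPM in PRMT5 knockdown cells and 219 ± 4.47 CPM in MEP50 knockdown cells, against 397 ± 6.92 CPM in the control (adjusted p = 1.37e-19 and 3.03e-22). ITGA5, the alpha subunit of the classical fibronectin receptor, was lower in PRMT5 knockdown cells than in MEP50 knockdown cells, at 50.1 ± 2.81 against 95.03 ± 0.990 CPM (adjusted p = 6.12e-20). Its control level was 85.9 ± 2.01 CPM. Of 13 genes of matrix crosslinking and hyaluronan, 7 were tested. In PRMT5 knockdown cells 4 were higher (57.1%) and 1 lower (14.3%), beside 26.1% and 24.9% of all genes, and in MEP50 knockdown cells 4 were higher (57.1%) and none lower, beside 26.5% and 25.2%. Median log2 fold changes there were 0.59 and 0.30. LOXL2, a lysyl oxidase, rose to 116 ± 0.927 CPM in PRMT5 knockdown cells and 99.0 ± 2.34 CPM in MEP50 knockdown cells, against 35.9 ± 1.35 CPM (adjusted p = 3.71e-30 and 1.51e-27). The hyaluronan synthase HAS2 was lower in PRMT5 knockdown cells, at 48.1 ± 1.27 CPM, than in MEP50 knockdown cells, at 130 ± 11.5 CPM, while HAS3 was higher there, at 51.0 ± 0.519 against 25.2 ± 1.44 CPM (adjusted p = 5.30e-20 and 3.85e-16). In the control HAS2 was at 113 ± 6.08 CPM and HAS3 at 7.94 ± 0.766 CPM.

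**Figure D5:**
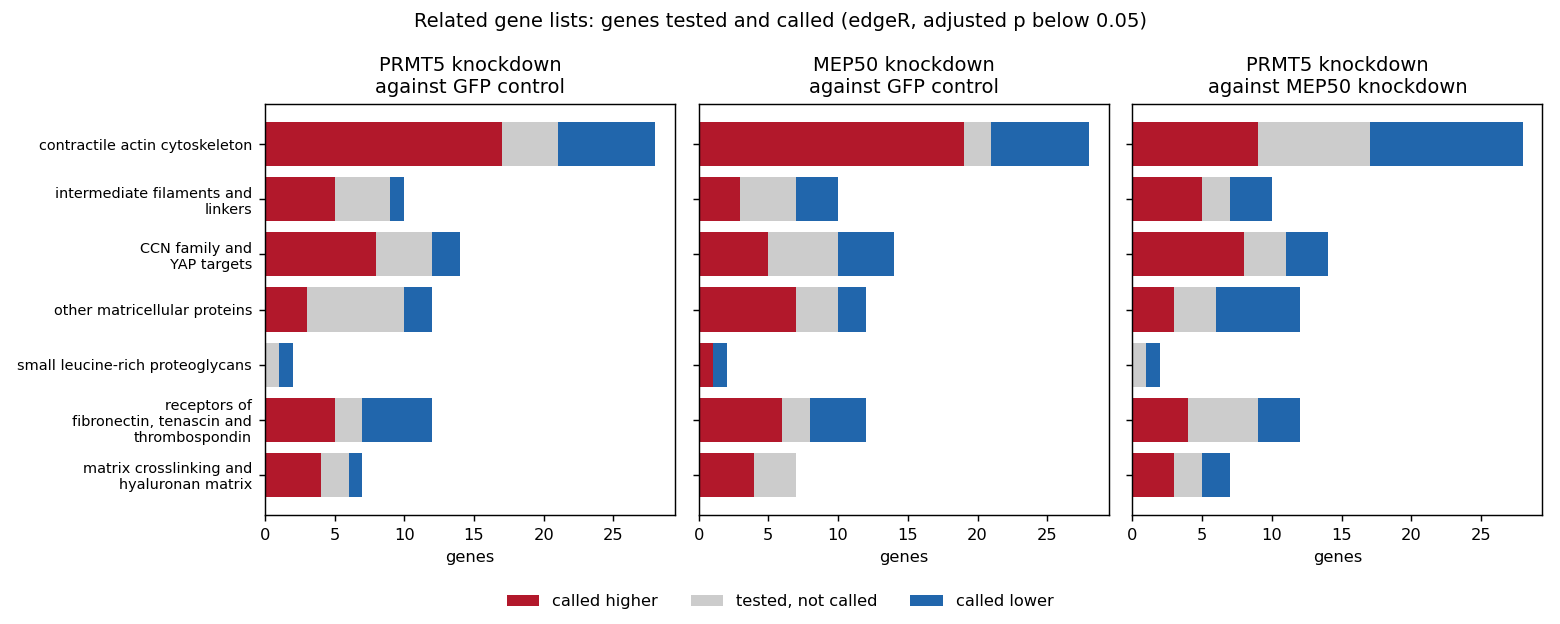
Numbers of tested genes (horizontal axes) called higher (red), not called (grey) and called lower (blue) at an adjusted p below 0.05 in 7 related gene lists, for PRMT5 knockdown cells against the GFP control, MEP50 knockdown cells against the GFP control and PRMT5 knockdown cells against MEP50 knockdown cells. The contractile actin list has 17 and 19 genes higher against the control, and the CCN and YAP target list has 8 higher between the knockdowns.

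In the authors' deposited table for PRMT5 knockdown cells, 8 of the 10 genes are listed, and in the authors' deposited table for MEP50 knockdown cells 5 are, without SPARC, CCN1 and CCN2. The largest adjusted p in these deposited tables is 0.04996 by DESeq2 and 0.0487 by edgeR. A gene outside them, such as SPARC in MEP50 knockdown cells, therefore has no call by the authors there. For LUM the authors' deposited tables give edgeR log2 fold changes of -3.06 in PRMT5 knockdown cells and 0.62 in MEP50 knockdown cells. For SPARC in PRMT5 knockdown cells the authors' deposited table gives 3.52 by edgeR and 0.91 by DESeq2.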

How the data were processed

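Stranded libraries were made from rRNA-depleted RNA, per the labels' protocols. The authors' deposited table gives, for each Ensembl gene, the read count in 9 libraries, not normalized. Trim Galore, STAR, HTSeq and the hg19 build are named in the submitters' processing notes, while versions and the strand setting are not given in the sources used here. The authors' deposited comparison tables hold log2 fold changes, p-values and adjusted p-values of DESeq2 and edgeR, per the file headers. Their 12 per-sample columns were not used.

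The 5 summary lines of HTSeq were left out. Up to 14.5% of counted reads lay outside genes and 2.4% were ambiguous. Counts were fitted with edgeR 4.0.16 in R 4.3.3 in 1 model of the 9 libraries (term: group). TMM scaling, filterByExpr and the robust quasi-likelihood option were used, and Benjamini-Hochberg adjustment ran over 14582 genes. CPM are TMM-scaled. Standard errors were derived from the F statistic, and 95% intervals use the test's degrees of freedom. Intervals of count ratios are exact and cover counting error only. The biological coefficient of variation was 0.0395. The fit was checked on simulated counts.

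Gene names matched 86.5% of identifiers. Exon lengths and overlaps came from GENCODE release 29 on GRCh38, so count coordinates are not given. Promoters came from RefSeq, and proteins were not used here. The genes and lists were chosen with earlier results of these data known. Named list genes are up to 3 called genes per list and comparison with the largest absolute log2 fold change, averaging 1 CPM or more, whose libraries did not overlap. A further gene list is not reported here. MYL9, ACTG2, ECM2, SPOCK1 and the CCN genes were added with values known. Alternatives tried were RLE scaling, library totals, other filters, DESeq2 1.42.0, a replicate block, fits of 6 libraries and leaving out each library.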

Additional observations from a re-analysis of the deposited data

How the results depend on the processing

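All 6 counts of genes called in the 3 comparisons stayed within 1.5 times the reported count under the 16 alternatives, and no log2 fold change of a named gene past the threshold changed sign. Among the same counts over the 10 genes, that of genes lower in MEP50 knockdown cells, reported as 2, moved by more than that and was 1 to 3 when single libraries were left out. It was 1 without MEP50 knockdown replicate 2 or control replicate 2, where TAGLN dropped out, and 3 without MEP50 knockdown replicate 1, where CCN1 came in. SPARC did not pass the filter at 1 CPM in 3 libraries or in the fits of each knockdown with the control alone, so it has no value there. Without control replicate 2 or 3 its log2 fold change was 4.29 or 2.96 in PRMT5 knockdown cells and 3.87 or 2.55 in MEP50 knockdown cells. Correlations of deviations were small, at -0.036 to 0.052 for same-numbered libraries and -0.054 to 0.052 for differently numbered ones. Between MEP50 knockdown cells and the control, same-numbered values were 0.044 to 0.052 and the others at most 0.0015, so a weak pairing is possible there. With the replicate block, 3804 genes were called higher and 3619 lower in PRMT5 knockdown cells, against 3809 and 3624 without it. In MEP50 knockdown cells these were 3874 and 3675 with it, against 3865 and 3675. Other named genes lost or gained a call in 30 of 2016 values, and 26 of 672 counts in the related lists moved by over 1.5 times; the cause was not tested. Depth limits TAGLN, SPARC, BGN and TNC, which had at most 65 reads in a library.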
